A study of Mus musculus with 12 samples.

Results

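The nuclear genes of the aminoacyl-tRNA synthetases were examined in the embryonic mouse telencephalon, as 38 of the 26190 genes in the deposited table. They were chosen by name (a one-letter amino acid code followed by ars, with or without a final 2, together with Farsa, Farsb, Eprs and Tarsl2). The rule itself used no measured value, although earlier results of these data were known when the choice was made. Of them 21 encode cytosolic enzymes and 17 encode mitochondrial ones, whose names end in 2. Tarsl2 ends in 2 as well but encodes a second cytosolic threonyl enzyme. All 38 passed the count minimum for testing.

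The study asked whether gene expression differs between the sexes before the surge of sex hormones, and at which stage. Poly(A) RNA of the whole telencephalon was sequenced from 12 untreated wild-type C57BL/6J embryos, 3 males and 3 females at each of embryonic day (E) 11.5 and E14.5. Each library is 1 embryo. At E11.5 each of 3 mothers gave 1 male and 1 female, and at E14.5 1 mother gave replicates 1 and 2 of each sex and another gave replicate 3. Mothers therefore lie within an age. Each of the 4 groups also carries its own series of sequencing identifiers, so that group and series cannot be told apart.

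The libraries held between 17551716 and 28355315 counts, of which the 38 genes took between 55033 and 106873. All 10 markers of the telencephalon passed the count minimum, with 3 called higher and 3 called lower at E14.5 by the rule that follows. Between the ages 8 of 8 neuronal markers were called higher and 4 of 6 cell division genes lower, the rule being an adjusted p under 0.05 in edgeR's quasi-likelihood test with an absolute log2 fold change above 0.5. Erythroid markers summed to between 4628 and 8181 CPM (counts scaled to 1000000 per normalized library) at E11.5 and to between 868 and 1255 CPM at E14.5, with 8 of 9 tested called lower. Genes of neural stem cells (5 of 8 called lower and 2 higher), mesenchyme (5 of 6 lower), choroid plexus (4 of 5 higher) and microglia and macrophages (3 of 6 higher) also moved with age. Between the sexes at E14.5, 3 of 10 telencephalon markers were called higher in females and 2 of 6 cell division genes lower. For neurons and for neural stem cells 1 of 8 was higher. For endothelial cells, for microglia and macrophages and for mesenchyme 1 of 6 was lower. Of all tested genes 5.98% were called higher in females and 5.62% lower. With age 24.4% of all tested genes were called higher and 19.0% lower. In bulk tissue fewer cells of a type and less RNA per cell cannot be told apart, and the part of these cell types in the changes described here was not tested.

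Aminoacyl-tRNA synthetases join each amino acid to its own tRNA, and so supply the substrates of translation. Most amino acids have an enzyme for the cytosol and a separate nuclear-encoded enzyme for the mitochondrial matrix. The exceptions are known: Gars and Kars each make both forms, Eprs carries the glutamyl and prolyl activities in 1 protein, Farsa and Farsb encode the subunits of the cytosolic phenylalanyl enzyme, and mitochondria charge glutamine tRNA through Ears2 and an amidotransferase. In humans, variants of several of these genes are known to cause leukoencephalopathy or neuropathy. Many cytosolic members are also targets of Atf4, the transcription factor of the amino acid response, which binds elements of the form TGATGNAAT or TGATGNAAC.

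Because the element is a feature that the choice of genes did not use, it was searched for on both strands of the promoter windows of RefSeq (build GRCm38.p6), each running from 250 bases before to 50 bases after a gene's start. Windows were found for 28 of the 38 genes, with 14 in each class. The 10 without a match included Cars, Hars, Lars, Nars, Rars, Vars, Wars, Hars2 and Pars2. The element was present in 5 of 14 cytosolic windows and in 0 of 14 mitochondrial windows, and in 1.77% of all 32851 windows of the same length. The 30 bases around the match are shown for 4 of these genes on the strand of the gene, with the 9 bases of the element in capitals, since these genes are set apart again in the comparison of the ages.
Gars, chr6:55037959-55037988 (+): ctggctgcgctATTTCATCAtgcaccgggc
Iars, chr13:49682125-49682154 (+): gcactgtcagtATTGCATCAcctccagacg
Tars, chr15:11399656-11399685 (-): ccaggagtcccGTTGCATCAgctggttagc
Yars, chr4:129189895-129189924 (+): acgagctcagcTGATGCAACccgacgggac
In Gars, Iars and Tars the element lay on the strand opposite to the gene, and in Yars on the strand of the gene. A match of these letters is a description of the sequence and was not tested as a binding site.

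The cytosolic genes were expressed at higher levels than the mitochondrial ones. Levels are compared between genes as FPKM as deposited, which divides the fragments of a gene by its transcript length and the size of the library. Over the 12 libraries the mean FPKM of the 21 cytosolic genes ran from 7.17 (Tarsl2) to 69.3 (Gars), with a median of 39.9. The mean of the 17 mitochondrial genes ran from 2.91 (Wars2) to 129.6 (Lars2), with a median of 6.30. Lars2, the mitochondrial leucyl enzyme, stood apart from its class, since the next mitochondrial gene was Iars2 at 19.6. Cytosolic and mitochondrial genes were paired by matching names, which left out glutamate, proline and phenylalanine. Of the 14 amino acids with such a pair, the cytosolic gene was the higher one in all 12 libraries for 13. The median ratio among these ran from 2.05 for Iars over Iars2 to 16.8 for Nars over Nars2. For leucine the order was the opposite in all 12 libraries, and Lars over Lars2 ran from 0.103 to 0.955. After Lars2, the order of mean FPKM continued with Gars, Nars, Kars, Rars and Qars, and it ended with Ears2, Pars2 and Wars2. Most neighbours in this order did not differ beyond their spread, since in only 5 of 37 neighbouring pairs was the higher gene above the lower one in all 12 libraries.

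**Figure D1:**
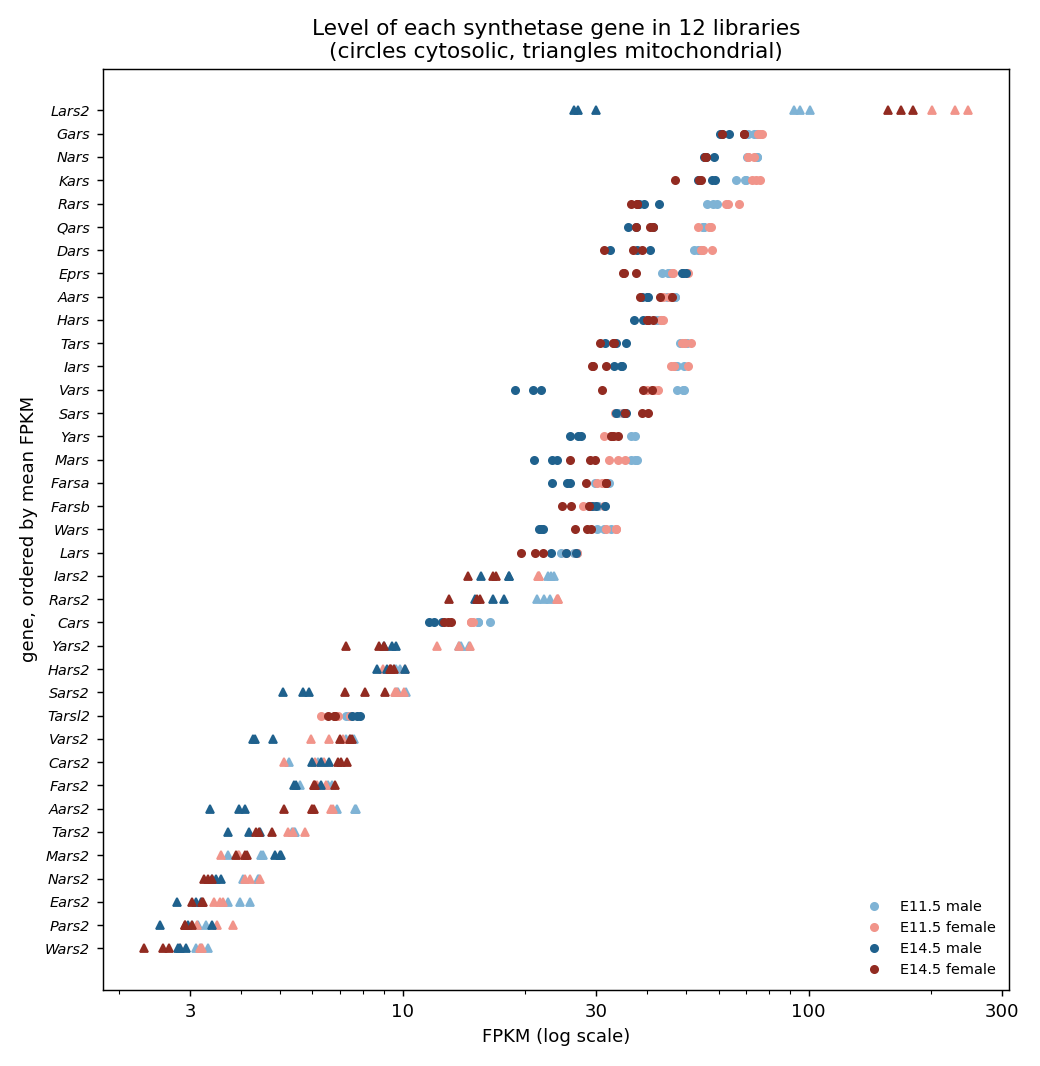
Level of 37 synthetase genes in FPKM (x axis, log scale), ordered by mean, with 1 point per library, circles for cytosolic and triangles for mitochondrial genes, coloured by group. The triangles lie below most circles except for Lars2, which spreads from 26.5 to 247 FPKM over the 12 libraries.

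Between E11.5 and E14.5 the synthetase genes as a class moved down, by small amounts. Of the 21 cytosolic genes, 5 were called lower at E14.5 (Vars, Rars, Tars, Dars and Iars) and 0 higher, where 19.0% of all 14454 tested genes were called lower and 24.4% higher. At an adjusted p under 0.05 alone, with no minimum fold, 17 of the 21 were lower and 1 (Sars) was higher, where 41.6% of all genes were lower and 40.1% higher. The median log2 fold change of the 21 was -0.24, beside -0.01 for all genes tested. The summed level of the cytosolic genes at E11.5 was 2996 ± 17.5 CPM in males and 3065 ± 89.3 CPM for the females, and at E14.5 it was 2510.3 ± 71.2 and 2486 ± 106 CPM (mean ± SD, n = 3 embryos each). Every E14.5 library was thus below every E11.5 library in that sum.

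**Figure D2:**
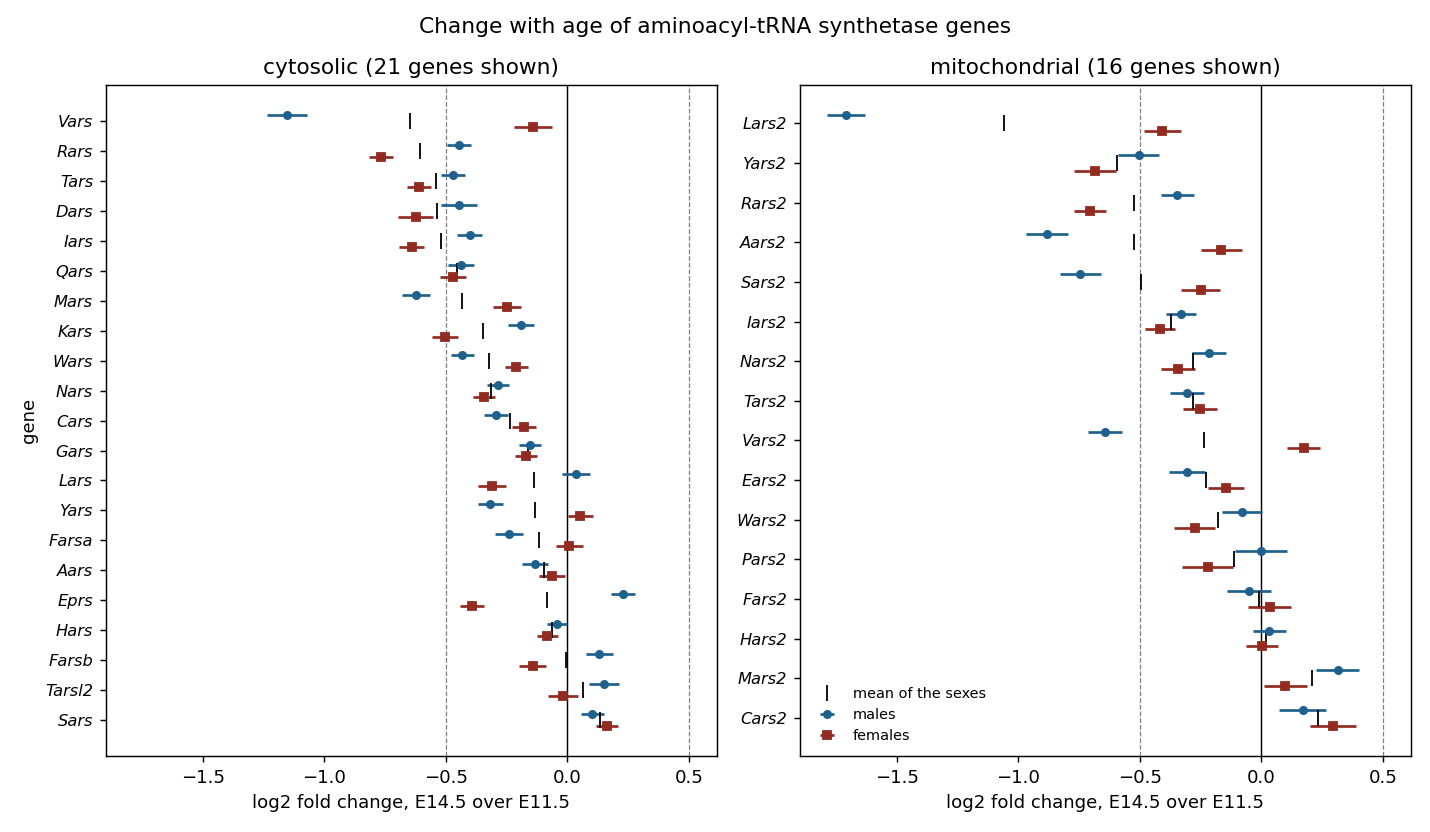
Log2 fold change from E11.5 to E14.5 (x axis) of 37 synthetase genes in males (circles) and females (squares), with bars of 1 standard error, ticks at the mean of the sexes and dashed lines at the fold threshold of 0.5. Most points lie left of 0. The widest gaps between the sexes are those of Lars2, Vars, Vars2 and Aars2, lower in males, and of Eprs, lower in females.

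Rars, the arginyl enzyme (chr11:35808381-35834528, minus strand, GRCm38), had 135, 141 and 141 CPM in E11.5 males and 155, 152 and 166 CPM in E11.5 females. At E14.5 it had 108, 99.8 and 98.0 CPM in males and 92.2, 93.7 and 92.0 CPM in females. All E14.5 libraries were below all E11.5 libraries, and the log2 fold change was -0.61 ± 0.03 (standard error, as throughout; adjusted p = 4.96e-10, edgeR). The fall was steeper in females (-0.77) than in males (-0.45), and the difference itself passed the test (-0.32 ± 0.07, adjusted p = 0.00211). When counts were corrected for GC content and transcript length, a step described with the sex differences, Rars was at -0.62 in males and -0.57 in females, and their difference turned to 0.05 and no longer passed (adjusted p = 0.696).

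Tars, the threonyl enzyme (chr15:11383663-11399658, minus strand), lay between 141 and 157 CPM in the 6 E11.5 libraries. At E14.5 it had 111, 106 and 99.8 CPM in males and 99.7, 101 and 95.3 CPM in females. The ages did not overlap, and the log2 fold change was -0.54 ± 0.03 (adjusted p = 1.97e-09). Between the sexes its log2 ratios of female to male were 0.05 ± 0.05 at E11.5 and -0.10 ± 0.05 at E14.5, neither past the threshold (adjusted p = 0.68 and 0.13).

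Dars, the aspartyl enzyme (chr1:128363707-128417416, minus strand), had 151, 152 and 149 CPM in E11.5 males and 166, 157 and 158 in females. It had 121, 113 and 97.7 CPM in E14.5 males and 112, 108 and 92.9 in females, with the lowest value of each sex in replicate 3, the embryos of the other mother. The log2 fold change was -0.54 ± 0.05 (adjusted p = 2.21e-07), and without the 2 libraries of that mother it was -0.46.

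Iars, the isoleucyl enzyme (chr13:49682130-49734267, plus strand), had 244, 231 and 234 CPM in E11.5 males and 234, 229.5 and 257 in females. It had 179.5, 182 and 175 CPM in E14.5 males and 147, 162 and 153 in females. The ages did not overlap, and at E14.5 all females were also below all males. The log2 fold change was -0.52 ± 0.04 (adjusted p = 4.88e-09), just past the fold threshold, and it was -0.495 and no longer past it without replicate 3 of the E11.5 females.

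Vars, the valyl enzyme (chr17:35000907-35016329, plus strand), did not share this pattern. It had 226, 232 and 235 CPM in E11.5 males and 193, 205 and 204 in females, then 105, 110.4 and 96.3 CPM in E14.5 males but 188, 202 and 155 in females. The E14.5 females overlapped the E11.5 females. Its log2 fold change of -0.65 ± 0.06 (adjusted p = 8.09e-08) is therefore a mean of -1.15 in males and -0.14 in females, and the latter did not pass the test (adjusted p = 0.12).

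The other cytosolic genes changed less. Qars, Mars, Kars, Wars, Nars, Cars and Gars were lower with log2 fold changes from -0.45 (Qars) to -0.16 (Gars), and Lars, Yars, Farsa, Aars and Eprs from -0.14 (Lars) to -0.08 (Eprs). Hars (-0.06), Farsb (-0.01) and Tarsl2 (0.07) did not pass the adjusted p of 0.05. Sars, the seryl enzyme, was the 1 cytosolic gene that passed it in the other direction, with a log2 fold change of 0.13 ± 0.03 (adjusted p = 0.00145). This small value was -0.02 when counts were corrected for GC content and length.

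By role, the 8 enzymes of the multisynthetase complex (Eprs, Iars, Lars, Mars, Qars, Rars, Kars and Dars), a cytosolic assembly, had a median log2 fold change of -0.44, and 3 of them were called lower. The 13 other cytosolic genes had a median of -0.13, and 2 were called lower. For both groups the share among all tested genes was 19.0%. This grouping was made after the values were seen, and the difference between the groups was not tested. Of the scaffold proteins of the complex, Aimp2 was at -0.50 (called lower), Aimp1 at -0.27 and Eef1e1 at -0.05 (adjusted p = 0.338). Of the 5 genes with the promoter element 2 were called lower, Tars (-0.54) and Iars (-0.52), where 19.0% of all tested genes were called lower. Gars (-0.16), Yars (-0.13) and Aars (-0.10) were within the fold threshold.

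Of the 17 mitochondrial genes, 5 were called lower at E14.5, among them Lars2, Yars2, Rars2 and Aars2, and 0 higher. Of all tested genes 19.0% were called lower and 24.4% higher. With no minimum fold 12 were lower (adjusted p under 0.05), and 2 (Mars2 and Cars2) were higher, where 41.6% of all genes were lower and 40.1% higher. The median log2 fold change was -0.28, and -0.26 without Lars2. Without Lars2 the summed level at E11.5 was 484 ± 9.26 CPM in males and 481 ± 9.27 CPM for the females, and at E14.5 it was 384 ± 19.5 and 391 ± 15.8 CPM (mean ± SD, n = 3 each). Among all 38 genes, 18 had every E14.5 library below every E11.5 library, 10 cytosolic and 8 mitochondrial, where 27.5% of all tested genes had that pattern. No member had the opposite pattern.

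Yars2, the mitochondrial tyrosyl enzyme (chr16:16302965-16309640, plus strand), lay between 22.0 and 26.6 CPM in the E11.5 libraries. It had 17.7, 18.3 and 17.1 CPM in E14.5 males and 16.3, 16.1 and 13.6 in females. The log2 fold change was -0.59 ± 0.06 (adjusted p = 2.76e-07), and at -0.48 after the GC correction it was no longer past the fold threshold. Yars2 was also called lower in males and in females taken separately, as 1 of 8 members called lower in each sex, where 20.4% of all genes were called lower in males and 19.6% in females.

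Rars2, the mitochondrial arginyl enzyme (chr4:34614957-34660167, plus strand), had 48.6, 46.3 and 45.4 CPM in E11.5 males and 51.2, 51.5 and 52.3 in females. It had 39.4, 37.3 and 33.9 CPM in E14.5 males and 32.6, 33.7 and 28.8 in females. The ages did not overlap (log2 fold change -0.52 ± 0.05, adjusted p = 8.45e-08). As for its cytosolic counterpart Rars, the fall was steeper in females (-0.70) than in males (-0.34), with a difference of -0.36 ± 0.10 (adjusted p = 0.00807). After the GC correction the difference in Rars2 was -0.10 (adjusted p = 0.567), and its change with age (-0.46) was no longer past the fold threshold.

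Aars2, the mitochondrial alanyl enzyme (chr17:45506832-45520843, plus strand), had 28.6, 31.3 and 32.0 CPM in E11.5 males and 25.2, 28.0 and 28.9 in females. It had 17.8, 17.4 and 14.8 CPM in E14.5 males and 25.2, 25.8 and 22.2 in females. As with Vars, the males fell (-0.88) while the E14.5 females overlapped the E11.5 females (-0.16, adjusted p = 0.0927). The pooled log2 fold change was -0.52 ± 0.06 (adjusted p = 1.31e-06). Without the 2 libraries of the mother of replicate 3, Aars2 (-0.45) and Rars2 (-0.46) were no longer past the fold threshold, and 3 mitochondrial genes were called.

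Of the remaining mitochondrial genes, Sars2 (-0.496, just inside the threshold), Iars2, Nars2, Tars2, Vars2, Ears2 and Wars2 were lower with log2 fold changes down to -0.18 (Wars2). Pars2 (-0.11), Fars2 (-0.01) and Hars2 (0.02) did not pass the adjusted p. Cars2, the cysteinyl enzyme, was higher by 0.23 ± 0.07 (adjusted p = 0.00541) and Mars2, the methionyl enzyme, by 0.21 ± 0.06 (adjusted p = 0.00662). After the GC correction Cars2 was at 0.28 (adjusted p = 0.00119, edgeR), while Mars2 was at 0.10 and no longer passed (adjusted p = 0.152).

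**Figure D3:**
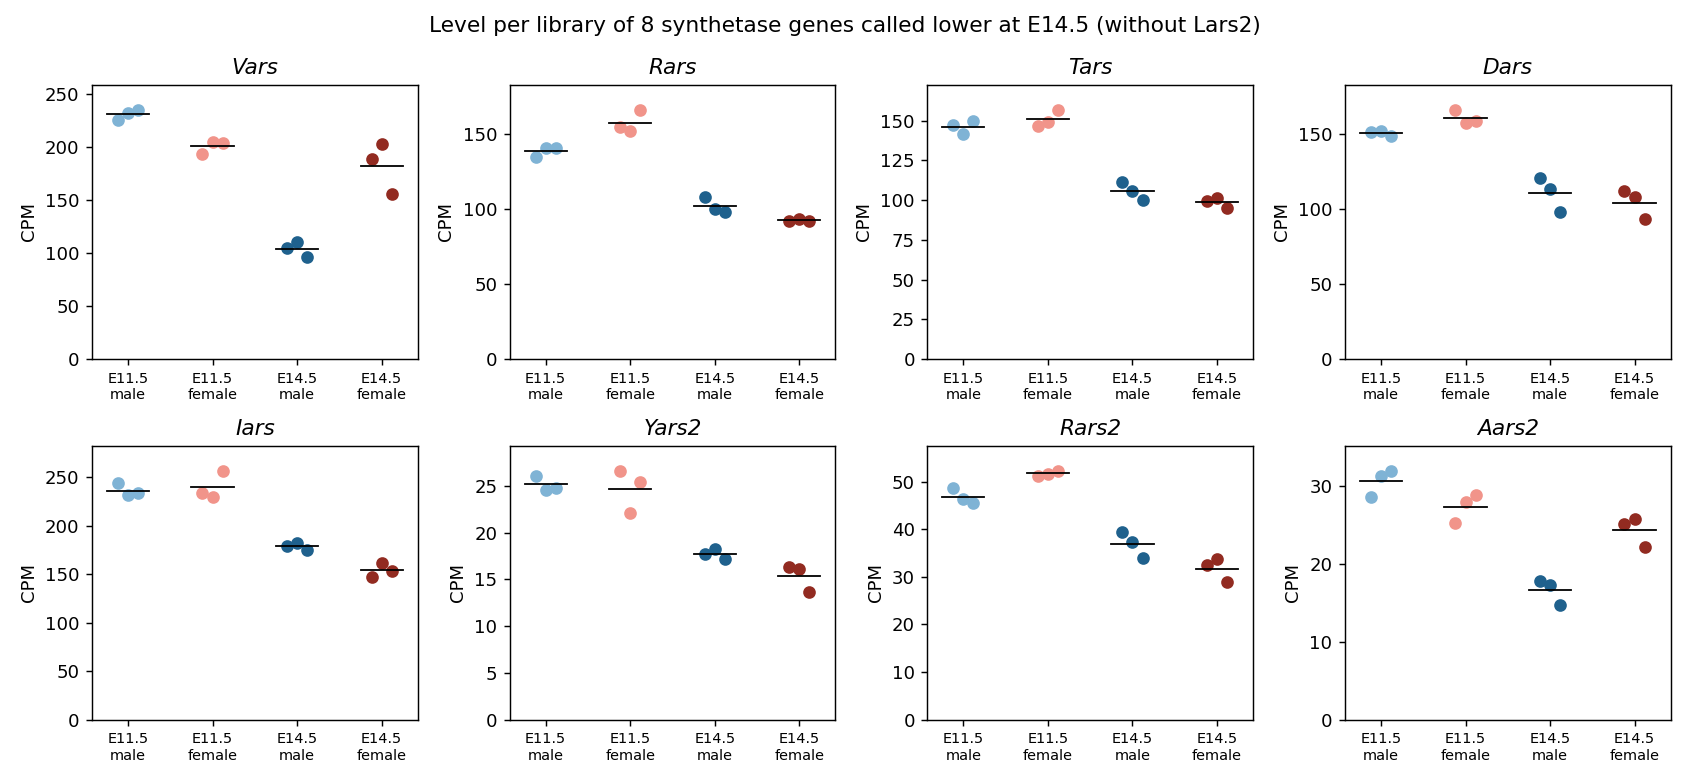
Level in CPM (y axis, from 0) of 8 genes called lower at E14.5, Lars2 not among them, with 1 point per embryo and a line at the mean of each group of 3. Rars, Tars, Dars, Iars, Yars2 and Rars2 are lower at E14.5 in both sexes, while the E14.5 females of Vars and Aars2 reach the level of E11.5 females.

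Lars2 (chr9:123366927-123462675, plus strand) had 476, 455 and 508 CPM in E11.5 males and 1254, 1020.0 and 1181 in E11.5 females. It had 157, 140.2 and 144 CPM in E14.5 males and 913, 808 and 886 in E14.5 females. All females were above all males at each age, and the E14.5 females were above the E11.5 males. The log2 ratio of female to male was 1.26 ± 0.08 at E11.5 (adjusted p = 2.56e-07) and 2.56 ± 0.08 at E14.5 (adjusted p = 6.04e-11), and it differed between the ages by 1.30 ± 0.11 (adjusted p = 2.77e-06). The change with age was -1.71 in males and -0.41 in females. Lars2 held from 25.9% to 72.4% of the summed CPM of the 17 mitochondrial genes.

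Rn45s, the 45S precursor of ribosomal RNA, whose copy in the table lies at chr17:39842997-39848829, is an RNA without a poly(A) tail. It had 2914, 2207 and 3808 CPM in E11.5 males and 6523, 6085 and 8058 in E11.5 females. It had 1533, 1377 and 1366 CPM in E14.5 males and 6985, 7707 and 8299 in E14.5 females. As with Lars2, all females were above all males at each age, with log2 ratios of 1.21 ± 0.17 at E11.5 (adjusted p = 0.00768) and 2.43 ± 0.18 at E14.5 (adjusted p = 2.07e-06). The 2 other tested RNAs that lack a tail, Rpph1 and Rmrp, were also higher in every female library than in every male library of the same age. Their levels were low, with at most 1.13 CPM in males and between 0.897 and 3.87 CPM in females. Rpph1 passed the test at E11.5 (adjusted p = 0.00684, edgeR) and at E14.5 (adjusted p = 2.71e-07). Rmrp passed it at E14.5 (adjusted p = 5.2e-05) but not at E11.5 (log2 ratio 0.99 ± 0.36, adjusted p = 0.16). There the highest male was at 0.821 CPM.

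Counts of Lars2 per 100 counts of Rn45s were between 13.3 and 20.6 in E11.5 males and between 14.7 and 19.2 in E11.5 females. They were between 10.2 and 10.5 in E14.5 males and between 10.5 and 13.1 in E14.5 females. The sexes overlapped in this ratio at each age, although Lars2 itself differed 2.40-fold and 5.91-fold between them. At E14.5 this overlap was narrow, with female replicate 2 at 10.48 and male replicate 3 at 10.54, and the other females were above every male. The ages did not overlap, and the ratio was lower at E14.5.

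The transcript of Lars2 (3894 bases, GENCODE vM21) was compared with all annotated transcripts by BLAST. It had 0 matches with an E-value up to 0.001 to the 6 transcripts annotated in the Rn45s interval. No separate ribosomal RNA sequence was searched, so this cannot show that ribosomal RNA shares no sequence with the Lars2 transcript. The match of this transcript with the smallest E-value outside its own gene was in the 3′ untranslated region at chr9:123461933-123462119, to the transcript AA474408 (80.1% identity over 196 bases), followed by a stretch at chr9:123462048-123462119 shared with Gm15564 (98.6% identity over 72 bases). Neither was analysed here. When all annotated isoforms of the members were compared, an isoform of Lars2 also shared a stretch with Kars (80.8% identity over 213 bases). Lars2 had counts other than whole numbers (with no tolerance) in 11 of 12 libraries, as had Mars and Iars2 in 12, and 8 of the 38 genes had whole counts throughout. Whether reads of ribosomal RNA contributed to the Lars2 counts was not tested, since the deposited values are gene totals, and Lars2 is given apart from the other members for that reason.

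**Figure D4:**
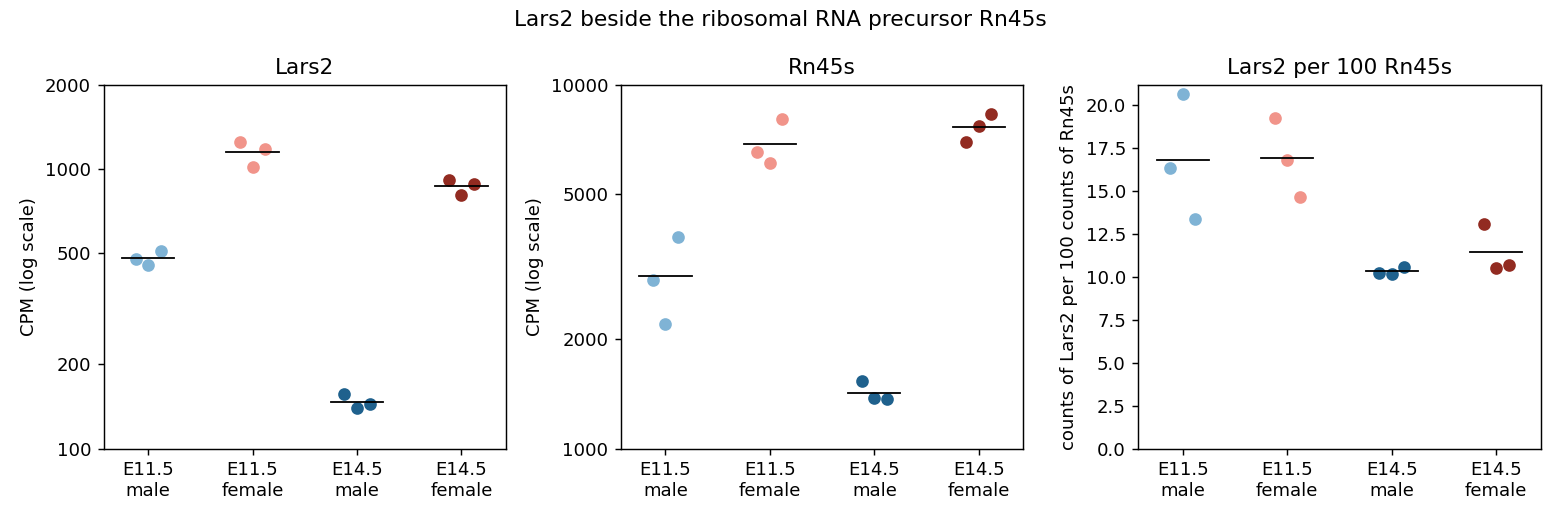
Lars2 and Rn45s in CPM (left and middle, log scales) and counts of Lars2 per 100 counts of Rn45s (right, from 0), with 1 point per embryo and a line at the mean of each group of 3. Females are above males in both genes at each age, while the ratio overlaps between the sexes, narrowly at E14.5, and runs from 10.2 to 20.6.

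At E11.5 Lars2 was the only member called between the sexes, where 0.374% of all genes were called. The log2 ratios of the other 37 lay between -0.20 (Vars) and 0.18 (Rars). At E14.5, 5 members were called higher in females (Lars2, Vars, Vars2, Aars2 and Sars2), where 5.98% of all genes were called higher, and 0 were called lower, where 5.62% were. With no minimum fold, 9 members were higher in females and 10 were lower (adjusted p under 0.05), where 23.8% of all genes were higher and 21.6% lower. The median log2 ratio of the 38 was -0.003, beside 0.002 for all genes tested.

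Vars had a log2 ratio of 0.81 ± 0.08 at E14.5 (adjusted p = 3.73e-06), from the values given above, with no overlap of the sexes. Vars2, the mitochondrial valyl enzyme (chr17:35655635-35667592, minus strand), had 36.1, 37.4 and 37.2 CPM in E11.5 males and 30.1, 36.0 and 33.9 in females. It had 22.7, 25.4 and 22.8 CPM in E14.5 males and 37.6, 38.5 and 36.6 in females, a log2 ratio of 0.67 ± 0.07 (adjusted p = 4.33e-06). The E14.5 males stood apart as the lowest group in both valyl genes.

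Aars2 had a log2 ratio of 0.55 ± 0.09 at E14.5 (adjusted p = 0.00016). Sars2, the mitochondrial seryl enzyme (chr7:28741968-28753879, plus strand), lay between 20.8 and 21.9 CPM in all 6 E11.5 libraries, had 12.9, 13.4 and 11.6 CPM in E14.5 males and 17.7, 20.1 and 16.3 in E14.5 females. Its log2 ratio was 0.51 ± 0.08 (adjusted p = 0.000197). Both were just past the fold threshold, and without replicate 3 of the E14.5 males they were at 0.47 and 0.46, which left 3 members called.

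In the other direction Eprs, the glutamyl-prolyl enzyme (chr1:185363044-185428360, plus strand), came closest. It had 249, 249 and 244 CPM in E11.5 males and 259.9, 260.3 and 288 in females, then 291, 289 and 289 CPM in E14.5 males and 196, 215 and 205 in females. Its log2 ratio at E14.5 was -0.498 ± 0.05 (adjusted p = 2.71e-06), just inside the fold threshold. From E11.5 to E14.5 it rose in males (0.23) and fell in females (-0.39) at the adjusted p alone, which the pooled value of -0.08 does not show. The value in males turned to -0.15 (adjusted p = 0.0173) once counts were corrected for GC content and length.

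The order of these sex differences followed the GC content of the transcripts. The 4 members with the highest GC content were Vars2 (60.3%), Aars2 (59.2%), Vars (59.2%) and Sars2 (58%), which are the 4 called higher in E14.5 females besides Lars2 (49.5%). Over the 37 members without Lars2, the log2 ratio of female to male at E14.5 correlated with GC content with Pearson's r = 0.83 and Spearman's rho = 0.81, as a description across genes that share the same 6 libraries. The same was seen beyond the synthetases, since the median log2 ratio of all tested genes rose from -0.37 in the 936 genes of up to 42% GC to 0.41 in the 1600 genes above 58%.

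After a correction of each library for GC content and transcript length, 1 member (Lars2, 2.65) was called between the sexes at E14.5. Vars was at 0.45, Vars2 at 0.29, Sars2 at 0.21, Aars2 at 0.19 and Eprs at -0.21, and r over the 37 members was 0.19. Over all genes the correction left 148 called higher and 248 called lower in females. The correction would take away a real sex difference that tracked GC content as well, so the part of GC content in the calls cannot be told apart from sex.

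**Figure D5:**
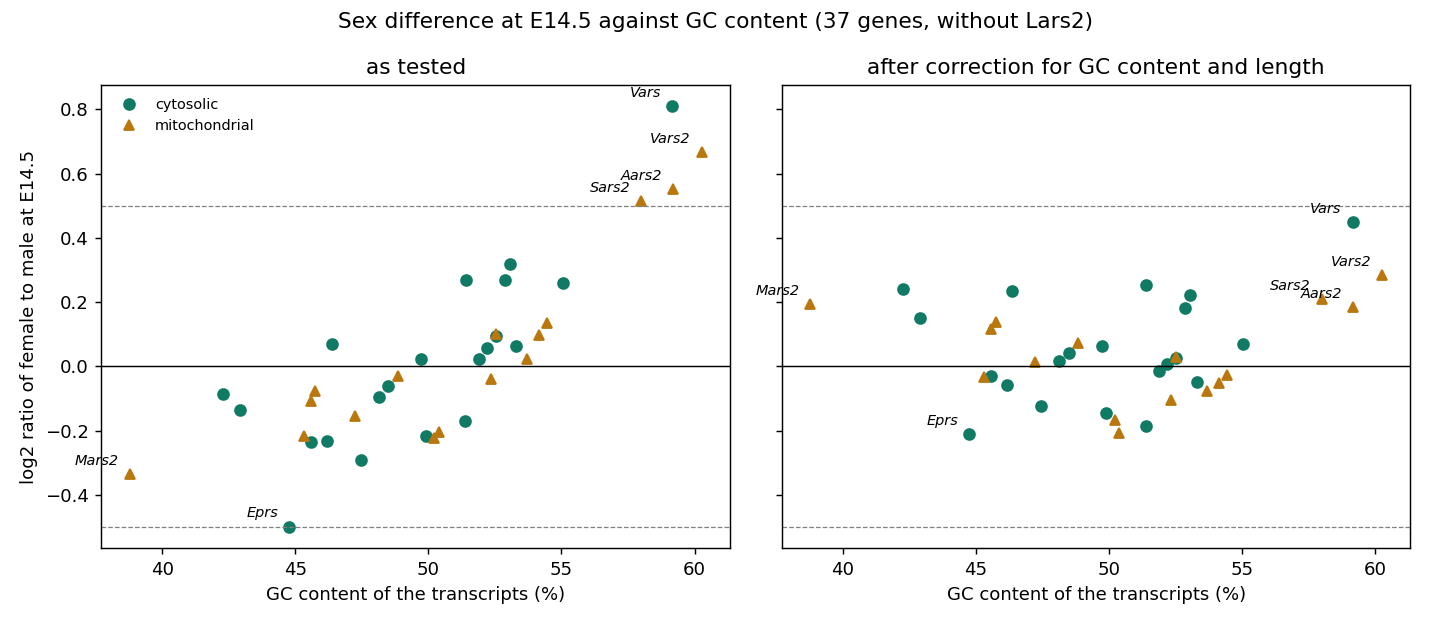
Log2 ratio of female to male at E14.5 (y axis) against the GC content of the transcripts (x axis, %) for 37 synthetase genes without Lars2, before (left) and after (right) correction for GC content and length, with dashed lines at the fold threshold of 0.5. On the left Vars, Vars2, Aars2 and Sars2 lie above the line at 58% GC or more, and on the right no gene passes it.

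The correction had less effect on the direction of the change with age. It moved the median of all genes from -0.01 to -0.12, the median of the cytosolic members from -0.24 to -0.33 and that of the mitochondrial members without Lars2 from -0.26 to -0.47, so that both classes stayed below the median of all genes. The members called lower then numbered 6 cytosolic and 8 mitochondrial, while the share of all genes called lower went from 19.0% to 25.1%. Rars2 and Yars2 left the calls, and Mars, Ears2, Iars2, Sars2, Tars2 and Vars2 entered them. In females Vars moved from -0.14 to -0.79 and Aars2 from -0.16 to -0.75, where their corrected values in males were -1.31 and -0.98. The difference between the sexes in this change still passed the test for Vars (0.52, adjusted p = 0.014) and no longer for Aars2 (0.23, adjusted p = 0.263).

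The change of the female to male ratio from E11.5 to E14.5 passed an adjusted p of 0.05 in 16 of the 38 members, 9 upward and 7 downward, where 39.1% of all genes did so. After the GC content and length correction 6 did, 4 upward and 2 downward, where 12.7% of all genes did. Embryos of 1 mother varied together, and with the mother as a block in the corrected counts 12 members passed, 9 upward and 3 downward, where 28.0% of all genes did.

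Partners of the synthetases were followed by the same rule, by which 24.4% of all tested genes were called higher and 19.0% lower. Of 5 genes that edit or proofread charged tRNA, 2 were called lower at E14.5, Prorsd1 (log2 fold change -0.83) and Dtd2 (-0.78), a D-aminoacyl-tRNA deacylase. Of 4 mitochondrial partners 0 were called. Gatb, a subunit of the amidotransferase that completes glutamine charging, was at -0.31 and Mtfmt, which formylates the initiator tRNA, at 0.33. Of 10 mitochondrial translation factors 1 was called lower, the elongation factor Tsfm (-0.71), with Tufm at -0.33, Gfm2 at -0.32 and Guf1 at 0.32. For Guf1 the sexes went apart, with group means from 43.7 to 77.8 CPM in males and from 46.9 to 41.3 CPM in females. Tsfm fell further in males, from 29.5 to 14.7 CPM, than in females, from 29.7 to 22.3 CPM. That difference was 0.59 ± 0.11 (adjusted p = 0.000832, edgeR). Of 7 cytosolic elongation factor genes, Eif5a (-0.74) and Eef1b2 (-0.54) were called lower and Eef1a2, the isoform known from neurons and muscle, was called higher (3.47), while Eef1d was at -0.44.

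Of 17 genes of Atf4 and its amino acid response targets, 4 were called higher and 4 lower at E14.5, with a median log2 fold change of 0.11. Of all tested genes 24.4% were called higher and 19.0% lower. Mthfd2, a mitochondrial folate enzyme, was at -0.95 and Sesn2, a leucine sensor, at -0.93, while Phgdh, the first enzyme of serine synthesis, was at -0.55 and the cystine transporter Slc7a11 at 1.44. Atf4 itself was at -0.33 ± 0.04 (adjusted p = 3.89e-06), within the fold threshold. The calls of this list thus went in both directions, as did those of all genes.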

How the data were processed

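Per the labels, poly(A) RNA was made into stranded TruSeq libraries and sequenced as paired ends, and the submitters' processing notes name STAR 2.6.0c and GRCm38. The authors assigned reads to genes in Genedata Profiler Genome and deposited 1 table with an expected count and an FPKM value for every gene in each library. Their treatment of reads matching more than 1 gene is not given in the sources used here, and 82.7% of the counts are whole (exactly equal to their rounded value). All mapped columns were used, and 0 columns belonged to other samples.

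The expected counts were rounded and tested with edgeR 4.0.16 under R 4.3.3 (quasi-likelihood, robust, TMM), all 12 libraries and 4 groups entering 1 model that left 8 residual degrees of freedom. A gene entered if its mean count reached 16 in any group, which 14454 did, and Benjamini-Hochberg adjustment ran over these. The change of the sex ratio between the ages was called by adjusted p under 0.05 with no minimum fold. The deposited FPKM values served for levels between genes.

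GC content was the mean over the GENCODE vM21 transcripts of a gene and was known for 94.2% of genes and for all 38 members. The correction fitted a loess surface (span 0.5) on GC content and length in each library and entered edgeR as offsets. Transcripts were compared with BLAST+ 2.17.0.

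Alternatives were DESeq2 1.42.0 (size factors, and its Wald test), upper quartile normalization, normalization without RNAs lacking a poly(A) tail, Lars2 and erythroid genes, limma 3.58.1 on log2(FPKM + 0.1) and log2(FPKM + 1), other count minimums and thresholds, each library left out, blocks for the replicate number and the mother, and the GC correction with and without the replicate block. Leaving out the mother of E14.5 replicate 3, and the GC correction with the mother as block, were added after the data were seen.

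The study's sample list gives the mothers, and same-numbered males and females share one. Deviations from the group means correlated between 0.15 and 0.75 in male and female embryos of 1 mother and between -0.63 and -0.02 in those of different mothers. Since no mother has embryos of both ages, the mother could be a block in the sex comparisons alone. It served there as an alternative, and the reported tests, also those between the sexes, had no block.

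Members are named, except that 1 gene is not reported here beyond the counts, sums and medians it enters. Values of all libraries are given for the 5 members of each class with the largest change with age among those called, for members called between the sexes, and for Lars2 and Rn45s, and of each gene list up to 4 members with the smallest adjusted p are named. Outside this rule, library values of Eprs, and the values of Atf4, Rpph1 and Rmrp, were added after they were seen. The members and the lists were chosen with earlier results of these data known.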

Additional observations from a re-analysis of the deposited data

Results flagged for a closer look

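In 16 of the 38 members the sex difference, as the log2 ratio of female to male, was not alike at the 2 ages (adjusted p under 0.05, edgeR interaction term), where 39.1% of all genes passed. From E11.5 to E14.5 the ratio moved up by 1.30 in Lars2 (adjusted p = 2.77e-06), 1.01 in Vars (adjusted p = 1.84e-05), 0.82 in Vars2, 0.72 in Aars2, 0.50 in Sars2, 0.37 in Mars and in Yars, 0.25 in Farsa and 0.22 in Wars. It moved down in Eprs (-0.62, adjusted p = 1.59e-05), Rars2 (-0.36), Lars (-0.34), Rars (-0.32), Kars (-0.31), Farsb (-0.27) and Iars (-0.24). With counts corrected for GC content and length, 6 of the 38 passed (12.7% of all genes), and 12 with the mother as block too (28.0% of all genes). Groups of 3 embryos were not searched for outlying embryos.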

How the results depend on the processing

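The 14 counts of called members were recomputed in 372 combinations of count and setting, and 332 stayed within 1.5 times of the reported count. With no minimum fold, the cytosolic genes gave 1 higher and 17 lower with age, the mitochondrial genes 2 and 12, all members 4 and 26 in males and 3 and 23 in females, and the sexes at E14.5 9 and 10. Above an absolute log2 fold change of 1 there were 0 cytosolic and 1 mitochondrial gene lower with age, 2 members in males and 0 in females, and 1 higher in females at E14.5. Correction for GC content and length gave 8 mitochondrial genes lower with age, 13 members lower in males, 1 higher in females at E14.5, and 4 upward and 2 downward changes of the sex ratio, all the same with the replicate block added. With the mother as block it gave 1 higher in females at E14.5, and 9 upward and 3 downward changes of the sex ratio. On log2(FPKM + 0.1) limma gave 13 lower in males, and on log2(FPKM + 1) 3 higher in females at E14.5. Eprs, just inside the fold threshold, was the 1 member called lower in females at E14.5 with DESeq2 size factors, the DESeq2 Wald test, upper quartile normalization and a count minimum of 100. Without the mother of E14.5 replicate 3, 3 mitochondrial genes were lower. With 1 library left out, 4 to 5 cytosolic and 3 to 6 mitochondrial genes were lower with age (3 without replicate 3 of either sex at E14.5), 7 to 10 members in males and 7 to 9 in females. At E14.5 3 to 5 were higher in females (3 without male replicate 3) and 0 to 1 lower (1, Eprs, without E11.5 male replicate 2, E14.5 male replicate 2 or E14.5 female replicate 2), and 8 to 9 upward and 6 to 9 downward changes of the ratio passed. The replicate block left 5 cytosolic and 5 mitochondrial genes lower with age and 5 members higher in females at E14.5, and neither it nor the block by mother moved any count by over 1.5 times. No member called with age changed sign in any setting. Of members near 0, the log2 change with age of Farsb was 0.0017 with DESeq2 size factors, 0.0017 in the Wald test, 0.0083 with a count minimum of 100, 0.0194 without that mother and -0.0307 to 0.0146 with 1 library left out. Fars2 was at 0.000205 with DESeq2 size factors, 0.0068 with the minimum of 100, 0.065 with the GC correction, 0.0648 with the block too, 0.0177 without that mother and -0.0429 to 0.0158 with 1 library left out. Hars2 was at -0.0141 with upper quartile normalization, -0.034 and -0.0311 in limma, -0.10 with the GC correction, with and without the block, and -0.0145 to 0.0454 with 1 library left out. The GC correction put Hars at 0.0022 and Sars at -0.0234, or -0.0244 with the block. With that correction the change of the sex ratio of Rars turned to 0.0543 (0.0546 with the replicate block, 0.0559 with the mother as block) and the change of Eprs in males to -0.146, also with the block. Except for the thresholds, the cause of these shifts was not tested. All 38 members passed the count minimum, and p values measure the spread between 3 embryos per group, from 2 or 3 mothers per age. Those reported between the sexes came from the fit without a block, and so did not use that males and females shared mothers. Those of the comparison of the ages take embryos of 1 mother as independent, although such embryos varied together. They therefore do not measure the spread between mothers and may be too small.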
